A study of Mus musculus with 32 samples.

Results

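The 9 complement genes described here are C1qa, C1qb, C1qc, C4b, C2, C3, Cfb, Serping1 and C3ar1, chosen by symbol from the 55357 genes counted in mouse brain arteries, and all 9 passed the filter on low counts in every comparison. RNA from dissected arteries was sequenced in 32 mice, 8 in each of 4 groups. The 3-month-old groups were Notch3-/- mice, in which Notch3 is inactivated, and Notch3+/+ mice. TgNotch3R169C mice and WT mice, labeled non-Tg, were 12 months old. The transgene adds rat Notch3 with the Arg169Cys mutation, which in humans causes the small vessel disease CADASIL, to an intact mouse gene, is overexpressed, and sits on the X chromosome, where it largely escapes inactivation. Mice of both sexes were used, the sex of each mouse was not given in the labels, and no mouse was treated. All lines had been made on other or mixed backgrounds or backcrossed, and were repeatedly backcrossed onto C57BL/6 before use. Library totals ranged from 20289487 to 54481934 counts, and levels are given in CPM, counts scaled to the size of the library. Notch3 itself was lower in Notch3-/- mice (16.2 CPM ± 1.82 against 83.6 ± 12.0, SD, n = 8 each) and higher in TgNotch3R169C mice (182 CPM ± 34.5 against 73.2 ± 8.19). How many reads of the rat transgene were counted for the mouse gene was not tested. The groups aged 12 months and 3 months also came from different mouse lines, so age and line cannot be told apart in any comparison between them.

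Complement is a cascade of plasma and tissue proteins that tags surfaces for removal. In the classical pathway C1q, built from the chains encoded by C1qa, C1qb and C1qc, binds a target and activates the proteases C1r and C1s, which cleave C4 and C2 to form the enzyme that cleaves C3. Factor B, encoded by Cfb, feeds the alternative pathway that amplifies C3 cleavage, the C1 inhibitor encoded by Serping1 blocks C1r and C1s, and C3ar1 encodes the receptor for the fragment C3a. In the brain, C1q is known as a product of microglia and of the macrophages at vessels and meninges, C4b and C3 are known in reactive astrocytes, and C1 inhibitor is abundant in fibroblasts of the vessel wall and meninges.

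The 9 genes fall on 4 chromosomes, with C1qb (ENSMUSG00000036905), C1qc (ENSMUSG00000036896) and C1qa (ENSMUSG00000036887) next to each other on chromosome 4. Cfb (ENSMUSG00000090231) and C2 (ENSMUSG00000024371) are neighbors on chromosome 17, which also holds C4b (ENSMUSG00000073418), C3 (ENSMUSG00000024164) and Notch3. Cfb, C2 and C4b lie in the MHC region of that chromosome. The strain origin of the DNA near Notch3, and its part in their values, was not tested. Serping1 (ENSMUSG00000023224) lies on chromosome 2 and C3ar1 (ENSMUSG00000040552) on chromosome 6. RefSeq promoter sequences of build GRCm38.p6 matched 4 of the 9 genes, C1qb, C1qc, C3 and C3ar1. C1qa, C4b, C2, Cfb and Serping1 were not matched. The windows of C1qb and C1qc are shown because their levels varied together across mice, and that of C3 because its level was less closely related to theirs. All are on the minus strand and are written 5′ to 3′ up to the base before the start of transcription. Capitals mark GAGGAA, a core bound by the myeloid factor PU.1, in C1qb, its reverse complement TTCCTC in C1qc, and TTGCNNAA, a core bound by C/EBP factors, in C3.
C1qb, chr4:136886201-136886320: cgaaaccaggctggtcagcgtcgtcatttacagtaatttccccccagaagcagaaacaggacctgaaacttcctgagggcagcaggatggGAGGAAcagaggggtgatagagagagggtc
C1qc, chr4:136892915-136893164: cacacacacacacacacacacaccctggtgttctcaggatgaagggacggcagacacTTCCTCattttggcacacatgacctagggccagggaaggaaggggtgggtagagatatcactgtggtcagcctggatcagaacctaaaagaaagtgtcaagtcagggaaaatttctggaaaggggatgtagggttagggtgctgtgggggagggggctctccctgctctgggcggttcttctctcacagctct
C3, chr17:57228137-57228256: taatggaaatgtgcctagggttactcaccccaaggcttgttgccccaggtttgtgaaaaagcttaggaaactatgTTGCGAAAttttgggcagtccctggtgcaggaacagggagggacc
The match began 30 bases before the start in C1qb, 193 bases before it in C1qc and 45 bases before it in C3. Both strands of the 250 bases before each start were searched, and GAGGAA was found in 23.3% and TTGCNNAA in 9.56% of 32851 promoters of that length. The paired-GAAA interferon-factor motif (IRF, in 2.98% of promoters), the ETS-IRF composite motif (2.3%) and the STAT motif TTCNNNGAA (7.02%) were not among the letters of the 4 windows, and C3ar1 held TATAAA, as did 12.4% of promoters.

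Levels spanned a wide range. Per kb of exon, and averaged over the 4 groups, the mean level was 283 CPM per kb for Serping1, 197 for C1qa, 164 for C1qb, 94.7 for C1qc, 57.3 for C4b, 10.3 for C2, 5.99 for C3ar1, 3.26 for C3 and 0.218 for Cfb. Each gene was above the next one in this order in 32 of 32 libraries, except that C3ar1 was above C3 in 28 of 32. Across libraries the ranges of Serping1 (220.0 to 347 CPM per kb) and C1qa (159 to 255) overlapped, as did those of C1qa and C1qb (133 to 215), those of C1qc (75.0 to 117) and C4b (33.2 to 80.8), and those of C3ar1 (4.16 to 7.85) and C3 (0.76 to 7.47). The level of Cfb, at 9 to 50 counts per library, leaves its changes with wide intervals.

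The 3 C1q chains were at similar levels in all 4 groups. C1qa, the A chain, ranged from 167 to 232 CPM, with its median (here and below in parentheses) at 196, in Notch3+/+ mice, from 166 to 246 (198) in Notch3-/- mice, from 176 to 265 (214) in WT mice and from 176 to 248 (199) in TgNotch3R169C mice. C1qb, the B chain, ranged from 151 to 215 CPM (176), from 145 to 232 (173), from 144 to 234 (180.5) and from 147 to 199.7 (179.9) in the same order of groups. C1qc, the C chain, ranged from 151 to 210.0 CPM (177), from 153 to 226 (180.0), from 162 to 227 (192) and from 145 to 208 (182). All groups overlapped for each chain, and the mouse with the most C1qc in a group was also the one with the most C1qa and C1qb in each of the 4 groups.

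C4b, the mouse gene for the C4 protein that C1s cleaves, had a higher median in each mutant group than in its control group. It ranged from 189 to 347 CPM (243) in Notch3+/+ mice and from 279.6 to 375 (312) in Notch3-/- mice. At 12 months it ranged from 251 to 433 CPM (332) in WT mice and from 345 to 460.0 (399.6) in TgNotch3R169C mice. Every Notch3-/- mouse lay above the Notch3+/+ median and every TgNotch3R169C mouse above the WT median, while in both pairs the groups overlapped. C4a, a close relative of C4b also on chromosome 17, was at 1.40 to 1.71 CPM as a mean of each group. Of the 50-base stretches of a C4b transcript, 35.2% also occur in a C4a transcript, and of the 100-base stretches 16.5% do, so reads from the 2 genes could have been assigned to either or set aside.

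C2, the protease that joins C4b in the C3-cleaving enzyme, ranged from 32.5 to 38.2 CPM (35.3) in Notch3+/+ mice and from 32.2 to 45.05 (37.5) in Notch3-/- mice. It ranged from 37.3 to 55.9 CPM (45.7) in WT mice and from 32.3 to 45.2 (41.8) in TgNotch3R169C mice. The WT group stood higher than Notch3+/+, with 7 of 8 WT mice above the highest Notch3+/+ mouse. No 50-base stretch of C2 occurs in its neighbor Cfb.

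C3, the protein on which the pathways converge, varied widely between mice. It ranged from 3.91 to 28.9 CPM (7.40) in Notch3+/+ mice, from 4.26 to 16.7 (9.64) in Notch3-/- mice, from 13.5 to 38.4 (24.2) in WT mice and from 13.2 to 36.3 (20.6) in TgNotch3R169C mice. Both 12-month groups stood above both 3-month groups apart from Notch3+/+ replicate 8, whose 28.9 CPM lay far above the next Notch3+/+ mouse at 13.0, and from Notch3-/- replicate 1. Cfb, which encodes factor B, ranged from 0.32 to 0.69 CPM (0.49) in Notch3+/+ mice, from 0.40 to 1.04 (0.71) in Notch3-/- mice, from 0.41 to 1.11 (0.49) in WT mice and from 0.45 to 0.96 (0.69) in TgNotch3R169C mice. All groups overlapped for Cfb.

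Serping1, encoding C1 inhibitor, ranged from 541 to 744 CPM (635) in Notch3+/+ mice, from 589 to 806 (653) in Notch3-/- mice, from 594 to 732 (654) in WT mice and from 512 to 757 (685) in TgNotch3R169C mice. C3ar1, the C3a receptor, ranged from 18.5 to 29.4 CPM (25.4), from 18.7 to 32.9 (27.1), from 20.4 to 28.6 (27.7) and from 17.9 to 33.8 (24.8) in the same order of groups. For both genes the 4 groups overlapped almost entirely.

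**Figure D1:**
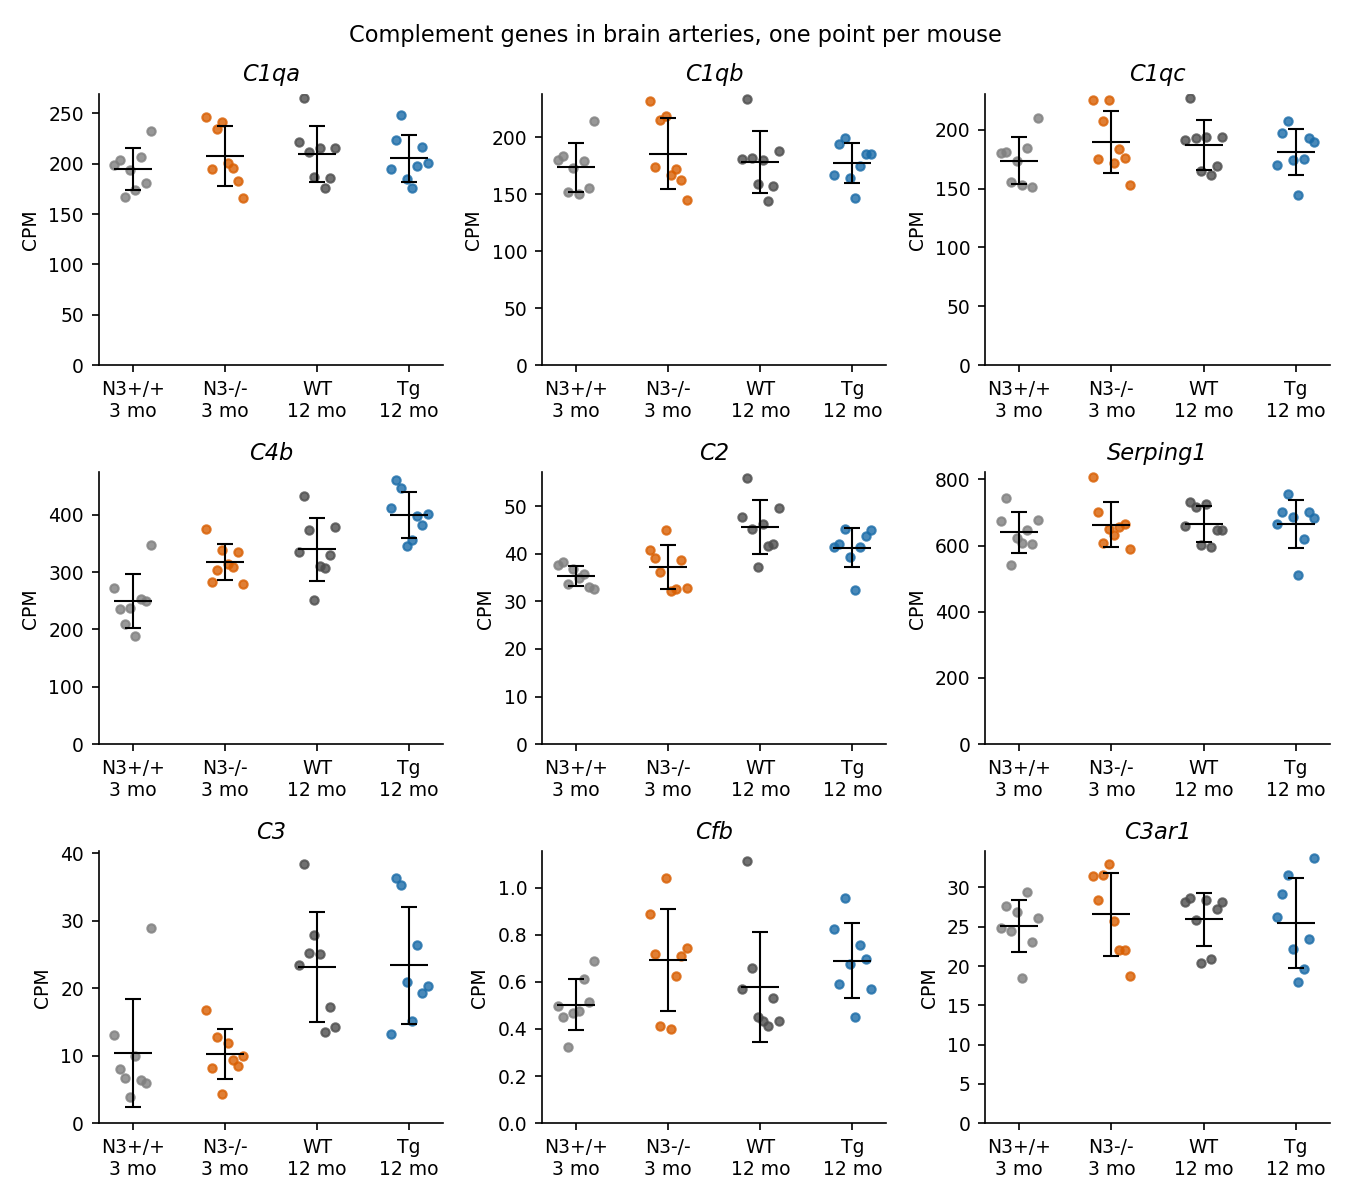
Level of each of the 9 complement genes in CPM (y axis, starting at 0), with 1 point per mouse in Notch3+/+ (N3+/+), Notch3-/- (N3-/-), WT and TgNotch3R169C (Tg) mice of the stated age in months (mo); horizontal lines show the mean and the SD of 8 mice. The C1q chains, Serping1 and C3ar1 overlap in all groups, C4b and C2 shift between groups, and C3 is at 13.2 CPM or more in every 12-month mouse.

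Loss of Notch3 was examined by comparing Notch3-/- with Notch3+/+ mice at 3 months. None of the 9 genes passed the test in edgeR's quasi-likelihood fit at an adjusted p below 0.05 (Benjamini-Hochberg over all genes tested), and 0.649% of all genes tested did (115 of 17714). C4b and Cfb were the 2 members at an unadjusted p below 0.05, of the 1363 genes with such a p, and limma voom called no member. The level of C4b was 317 CPM ± 31.6 against 249 ± 47.2 (SD, n = 8 each), a difference of 0.35 on the log2 scale (95% CI 0.14 to 0.56, SE 0.10, adjusted p = 0.178). Whether C4b passed depended on the tool and on 1 mouse. With DESeq2 C4b passed at the same fold change (adjusted p = 0.0444), and without Notch3+/+ replicate 8, the mouse highest in C4b, the C1q chains and C3, its log2 fold change was 0.44 (adjusted p = 0.0112). Cfb had a log2 fold change of 0.45 (95% CI 0.02 to 0.88, SE 0.20, adjusted p = 0.606), from a mean of 0.50 CPM to 0.69. The other 7 genes had log2 fold changes from -0.02 for C3 to 0.13 for C1qc, and their 95% CIs reached at most 0.31 for the C1q chains, 0.22 for C2 and 0.20 for Serping1. For C3 the interval ran from -0.77 to 0.73, so a rise of up to 1.66-fold or a fall to 0.585 of the control level lies within it.

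Beside these values, the smooth muscle list (Acta2, Myh11 and 6 other contractile genes) had all 8 genes at lower values in Notch3-/- mice, of which 7 passed, and its summed level had a median of 2085 CPM (1840 to 2842) against 3390 (2733 to 4827). The interferon response list had all 12 genes at higher values, each at an unadjusted p below 0.05, of which 2 passed, Ifit1 and Oasl2. Its median log2 fold change was 0.57, with a summed level of 732 to 1297 CPM against 618 to 752. The choroid plexus list had 8 of 8 genes at higher values, 6 of them at an unadjusted p below 0.05 and none passing (median log2 fold change 2.80). Its summed level was over 1000 CPM in only 1 Notch3-/- library, at 25440. The median was 274 CPM in Notch3-/- mice (from 231.5) against 354 (314 to 663) in Notch3+/+ mice. C4b also did not pass with the choroid plexus list as a covariate, and its log2 fold change was 0.32 to 0.38 over 12 alternatives. The part of the smooth muscle and interferon lists in the C4b values was not tested. The microglia, border macrophage and shared myeloid lists had no gene that passed, with median log2 fold changes of -0.03, 0.05 and 0.13. In whole arteries, fewer cells of a type and less RNA per cell cannot be told apart.

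The effect of the mutant transgene was examined by comparing TgNotch3R169C with WT mice at 12 months. None of the 9 genes passed the test, and 0.113% of all genes tested did (20 of 17731). At an unadjusted p below 0.05 there was 1 member, C4b, of the 1289 genes with such a p, and DESeq2 and limma voom also called no member. C4b was at 399.8 CPM ± 39.9 against 339.8 ± 55.1 (SD, n = 8 each), a difference of 0.23 on the log2 scale (95% CI 0.04 to 0.43, SE 0.093, adjusted p = 0.645), and 2 TgNotch3R169C mice lay above the highest WT mouse. For C2 the value was -0.15 on the log2 scale (95% CI -0.32 to 0.02, SE 0.081, adjusted p = 0.721), with 8 of 8 TgNotch3R169C mice below the WT median. C3 had nearly the same mean in both groups, 23.4 CPM ± 8.62 and 23.1 ± 8.20, with a log2 fold change of 0.01 and an interval from -0.50 to 0.53. The C1q chains had log2 fold changes from -0.04 to -0.01 with 95% CIs inside -0.21 to 0.18, and Serping1 was at 0.00 (-0.15 to 0.16). For C3ar1 the value was -0.02 (-0.30 to 0.25), and for Cfb 0.25 (-0.21 to 0.71). No gene of the smooth muscle, interferon, microglia, border macrophage or astrocyte lists passed here, with median log2 fold changes of -0.22, -0.14, -0.04, -0.09 and 0.16. Nor did any gene of the neutrophil list (6 of 6 tested at lower values, 5 at an unadjusted p below 0.05, median -1.03), the choroid plexus list (8 of 8 lower, median -1.03) or the neuron list (8 of 8 higher, median 0.35). C4b also did not pass with the neuron or choroid plexus list as a covariate, and was at 0.19 to 0.27 over 12 alternatives. The part of the neutrophil list in the C4b value was not tested. Without the 6 libraries over 1000 CPM of choroid plexus genes, 4 WT and 2 TgNotch3R169C, C4b was at 0.20 (adjusted p = 0.593).

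The changes of the 2 mutants were then set against each other as an interaction in 1 fit of all 4 groups. None of the 9 genes passed for a difference between the mutants' changes, with edgeR, DESeq2 or limma voom, while 0.35% of all genes tested did (65 of 18555). The largest gap relative to its error was that of C2, at -0.22 on the log2 scale (SE 0.11, unadjusted p = 0.0450, adjusted p = 0.561), where 1599 of all genes had an unadjusted p below 0.05. For C4b, with positive fold changes in both mutants, the gap was -0.11 (95% CI -0.40 to 0.17, SE 0.14, adjusted p = 0.857). The interferon list had 12 of 12 genes at negative values here, 10 at an unadjusted p below 0.05 and none passing (median -0.75), and the choroid plexus list 8 of 8 (median -3.85).

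Between the 2 control groups, C4b and C2 were higher in WT mice aged 12 months than in Notch3+/+ mice aged 3 months. These 2 of the 9 genes passed the test, and 7.92% of all genes tested did (1398 of 17643). This comparison uses the control mice of both comparisons above. C2 rose from 35.3 CPM ± 2.14 to 45.7 ± 5.66 (SD, n = 8 each), a difference of 0.37 on the log2 scale (95% CI 0.23 to 0.51, SE 0.066, adjusted p = 0.00378), and it passed in all 16 fits that left out 1 mouse and in all 12 other alternatives. C4b rose from 249 CPM ± 47.2 to 339.8 ± 55.1, a difference of 0.44 on the log2 scale (95% CI 0.20 to 0.69, SE 0.12, adjusted p = 0.0284). C3 was at 23.1 CPM ± 8.20 against 10.4 ± 8.00, a log2 fold change of 1.16 (95% CI 0.42 to 1.90, SE 0.35), and just missed the threshold (adjusted p = 0.0519). All 8 WT mice lay above the Notch3+/+ median for C3, but only 1 lay above Notch3+/+ replicate 8, and without that mouse the log2 fold change of C3 was 1.58 (adjusted p = 0.0030). The C1q chains (0.03 to 0.10), Serping1 (0.05), C3ar1 (0.04) and Cfb (0.21) did not pass.

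The calls of C4b and C3 were near the threshold. C4b no longer passed without Notch3+/+ replicate 2, 4 or 7 or WT replicate 2 (adjusted p from 0.0522 to 0.0555), and its log2 fold change stayed between 0.39 and 0.52. C3 passed with DESeq2 (1.15, adjusted p = 0.0213), limma voom (1.40, adjusted p = 0.0156) and 1 fit of all 4 groups (1.16, adjusted p = 0.0226). It also passed with the myeloid covariate (adjusted p = 0.0499) and the neuron covariate (adjusted p = 0.045). In total C3 passed in 5 of these 12 alternatives (adjusted p up to 0.257) and in 2 of 16 fits without 1 mouse (up to 0.103).

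Other tissue markers also moved in this comparison. Choroid plexus genes such as Ttr summed to over 1000 CPM in 4 of 8 WT libraries and in none of the 8 Notch3+/+ libraries. Leaving those libraries out, a setting chosen after seeing the data, gave log2 fold changes of 0.38 for C2 (adjusted p = 0.00916), 0.50 for C4b (adjusted p = 0.0563) and 0.95 for C3 (adjusted p = 0.238). The interferon list had 12 of 12 genes at higher values, of which 9 passed (median log2 fold change 0.56), all 8 smooth muscle genes passed as lower (median -0.81), and the oligodendrocyte markers were at higher values in 8 of 8, of which 3 passed. Of the 8 astrocyte markers 5 were at higher and 3 at lower values, and 2 passed as higher and 1 as lower (summed level 2316 to 3032 CPM against 2084 to 3460). None of the 10 microglia and 8 shared myeloid markers passed, and the summed microglia level was 520 to 740.0 CPM against 549 to 681. Of the border macrophage markers 1 of 10 passed, as lower. The neutrophil list had 6 of 6 tested genes at higher values, 4 at an unadjusted p below 0.05 and none passing (median 1.04, summed level 14.2 to 115 CPM against 7.16 to 44.2). With the microglia, border macrophage and shared myeloid lists together as a covariate, C4b and C2 passed and C3 was at 1.15 (adjusted p = 0.0499). The part of the interferon, smooth muscle, astrocyte, oligodendrocyte and neutrophil lists in the values of C4b, C2 and C3 was not tested.

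The 2 mutant groups were compared in the same way, in a comparison added after the data were seen, which shares no mouse with the comparison of the control groups but also differs in genotype. TgNotch3R169C mice aged 12 months had more C3 and C4b than Notch3-/- mice aged 3 months. These 2 of 9 genes passed, and 3.82% of all genes tested did (682 of 17865). C3 rose from 10.2 CPM ± 3.69 to 23.4 ± 8.62 (SD, n = 8 each), a difference of 1.20 on the log2 scale (95% CI 0.66 to 1.74, SE 0.25, adjusted p = 0.0140), with 6 of 8 TgNotch3R169C mice above the highest Notch3-/- mouse. C4b rose from 317 CPM ± 31.6 to 399.8 ± 39.9, a difference of 0.34 on the log2 scale (95% CI 0.19 to 0.48, SE 0.069, adjusted p = 0.0119), again with 6 of 8 mice above the highest. C2 did not pass, at 0.15 on the log2 scale (95% CI -0.01 to 0.32, adjusted p = 0.305). Both calls held when any 1 mouse was left out and without the 3 libraries rich in choroid plexus genes, and that of C3 was lost with the neuron list as a covariate (1.30, adjusted p = 0.0626). Here the neuron list had 8 of 8 genes at higher values with 1 passing (median log2 fold change 0.67), and the interferon list had no gene that passed (median -0.19). The astrocyte list had 7 of 8 genes at higher values, 6 at an unadjusted p below 0.05 and none passing (median 0.26, summed level 2617 to 3401 CPM against 2225 to 3313). The smooth muscle list had 8 of 8 at lower values with 3 passing (median -0.33), and the fibroblast list 1 of 10 passing as lower. Both calls held with the fibroblast list as a covariate. The part of the interferon, astrocyte and smooth muscle lists in the values of C3 and C4b was not tested.

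**Figure D2:**
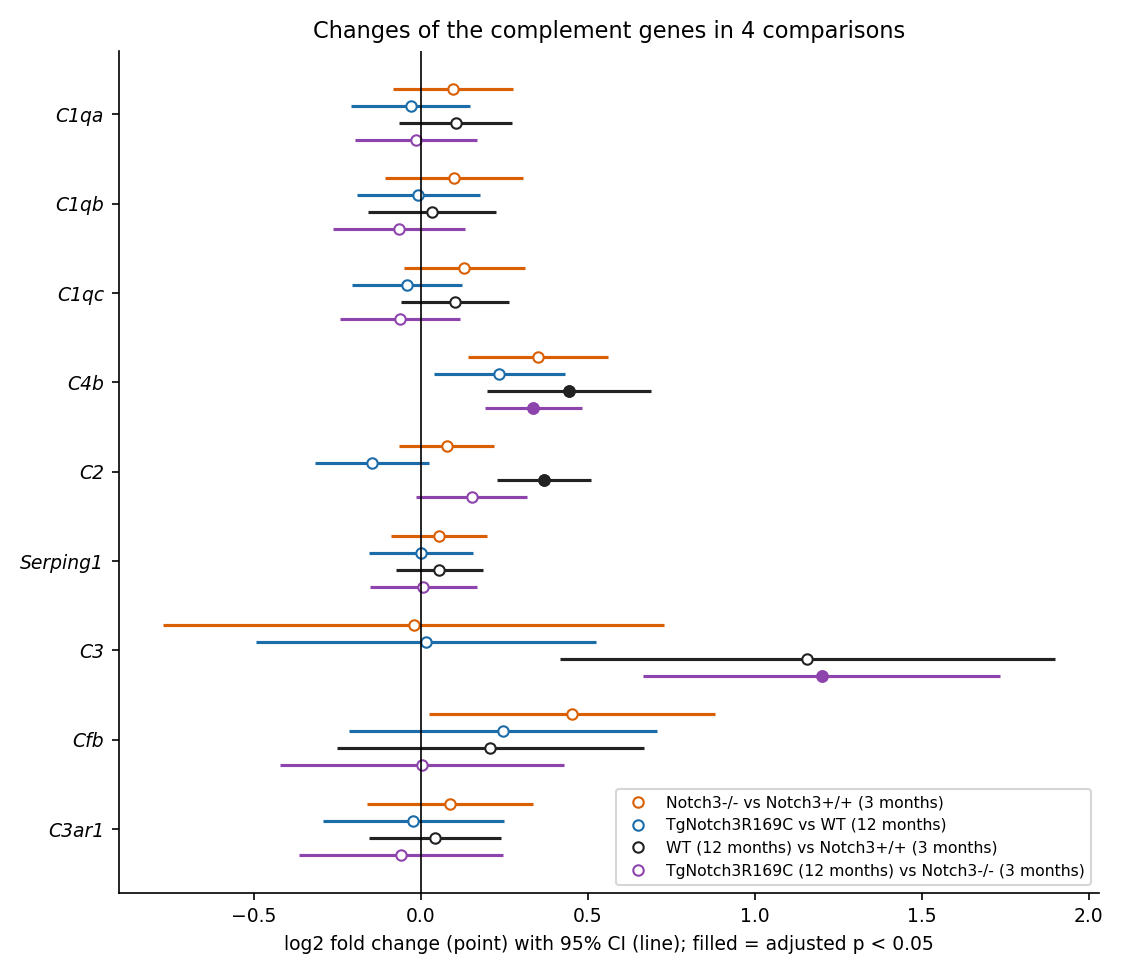
Log2 fold change (x axis, points) with 95% CI (lines) of the 9 complement genes in 4 comparisons, shown in 4 colors; filled points passed at an adjusted p below 0.05. Only C4b, C2 and C3 have filled points, all of them between 12-month and 3-month groups, and the C1q chains, Serping1 and C3ar1 lie close to 0 in each comparison.

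The rest of the pathway was described from a list of 49 other complement genes, of which 31 to 34 were expressed highly enough to be tested. No listed gene passed in Notch3-/- mice (0 of 32), in TgNotch3R169C mice (0 of 32) or for the difference between the 2 mutants' changes (0 of 34). Listed genes at an unadjusted p below 0.05 numbered 5, 2 and 2, where 1363 of 17714, 1289 of 17731 and 1599 of 18555 genes had such a p. DESeq2 and limma voom also called none in either mutant. The median log2 fold change of the list was 0.03 in Notch3-/- mice and 0.05 in TgNotch3R169C mice, where the medians over all genes tested were -0.0011 and -0.0074.

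Between the control groups 4 of 31 listed genes passed (12.9%), and 7.92% of all genes tested did (1398 of 17643). Of the 4, 1 was higher and 3 were lower in 12-month WT mice. Cr1l, encoding the membrane regulator Crry, fell by 0.16 on the log2 scale, from 82.6 CPM ± 5.93 to 74.0 ± 3.60 (SD, n = 8 each, adjusted p = 0.0396). Cd93, encoding an endothelial and myeloid surface protein once described as a C1q receptor, fell by 0.28, from 125 CPM ± 13.6 to 104 ± 9.55 (adjusted p = 0.0241). Cd59b, a paralog of the terminal-complex inhibitor Cd59a, rose by 0.55, from 1.04 CPM ± 0.24 to 1.52 ± 0.24 (adjusted p = 0.0327). The endothelium list had 8 of 8 genes at lower values with 1 passing (median log2 fold change -0.14), and the fibroblast list 8 of 10 at lower values with 3 passing (median -0.09). The count of 4 is not stable, as 7 listed genes passed with DESeq2 and none with the fibroblast list or the choroid plexus list as a covariate.

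Between the mutant groups 3 of 31 listed genes passed (9.68%), and 3.82% of all genes tested did (682 of 17865). C1s1, which encodes the protease C1s, rose by 0.48 on the log2 scale, from 19.9 CPM ± 2.97 to 27.7 ± 5.71 (adjusted p = 0.0382). Vsig4, encoding a macrophage receptor for C3b, rose by 0.85, from 0.61 CPM ± 0.25 to 1.09 ± 0.23 (adjusted p = 0.0440), and Cd93 fell by 0.30, from 136 CPM ± 14.7 to 110.5 ± 13.4 (adjusted p = 0.0444). In 4 of 16 fits that left out 1 mouse, none of the listed genes passed.

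Within each part of the list the most abundant gene showed where the transcripts lay. Vtn, encoding the terminal-complex inhibitor vitronectin, was at 2087 to 2280.0 CPM as a mean of each group. Colec12, a membrane scavenger receptor of the collectin family, was at 494 to 586 CPM, and Cd93 at 104 to 136. Cfp, encoding properdin, was at 20.4 to 24.0 CPM, and C8g, a chain of the terminal complex, at 2.90 to 3.48. None of these passed in either mutant.

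Mice of the same group differed in complement transcripts together. After removal of group means from log2 CPM, 32 of 36 pairs among the 9 genes were correlated across the 32 mice (permutation within groups, two-sided, adjusted p below 0.05 over 36 pairs), and all 32 were positive. The C1q chains varied almost as 1 gene. Pearson's r was 0.97 for C1qa with C1qb, 0.95 for C1qa with C1qc and 0.97 for C1qb with C1qc (Spearman's rho 0.96, 0.95 and 0.97), each with a permutation p of 1e-05, the smallest these resamples allow (adjusted p = 4.5e-05). Leaving out the 2 mice farthest from the median of the first gene gave r of 0.96, 0.94 and 0.97. C3ar1 followed the C1q chains (r = 0.74 to 0.76), and so did C4b (0.73 with each), C2 (0.66 to 0.73) and Serping1 (0.67 to 0.73).

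Pooled over the ages, C3 was the member least related to the others. It was weakly correlated with the C1q chains (r = 0.44 to 0.47, adjusted permutation p from 0.00972 to 0.0189) and not detectably with C2 (r = 0.003, permutation p = 0.988), C3ar1 (r = 0.10, permutation p = 0.595) or Cfb (r = 0.22, permutation p = 0.213). The remaining pair outside the 32 was Cfb with C3ar1 (r = 0.26, permutation p = 0.171). With C4b, C3 had r = 0.43 (adjusted permutation p = 0.0335), and 0.32 without the 2 mice farthest from the C3 median, with rho at 0.30 (adjusted permutation p = 0.122), so that relation rests on a few mice. As a background, 4.36% to 5.04% of 18554 genes had an r of 0.5 or more with a C1q chain, 10.1% with C3ar1 and 1.05% with C3. Of the 8 other members, 7 reached that r with each C1q chain and none did with C3.

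The relations were computed again within each age, where 32 of 36 pairs passed among the 16 mice aged 12 months and 9 of 36 among the 16 aged 3 months. The pair C4b and C2 had r = 0.79 at 12 months and 0.15 at 3 months, and C1qc and C2 had 0.92 and 0.54. The C1q chains had r from 0.946 to 0.983 with each other within ages. C3 had r from 0.66 to 0.70 with the C1q chains at 12 months and from 0.30 to 0.34 at 3 months, and with Cfb 0.53 and -0.01. With C2, C3 had r = 0.39 at 12 months and -0.33 at 3 months, and with C3ar1 0.32 and -0.07. Pooled over the ages, C3 with C2 had r = 0.26 without the 2 mice farthest from the C3 median. Differences in r between ages were not tested.

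**Figure D3:**
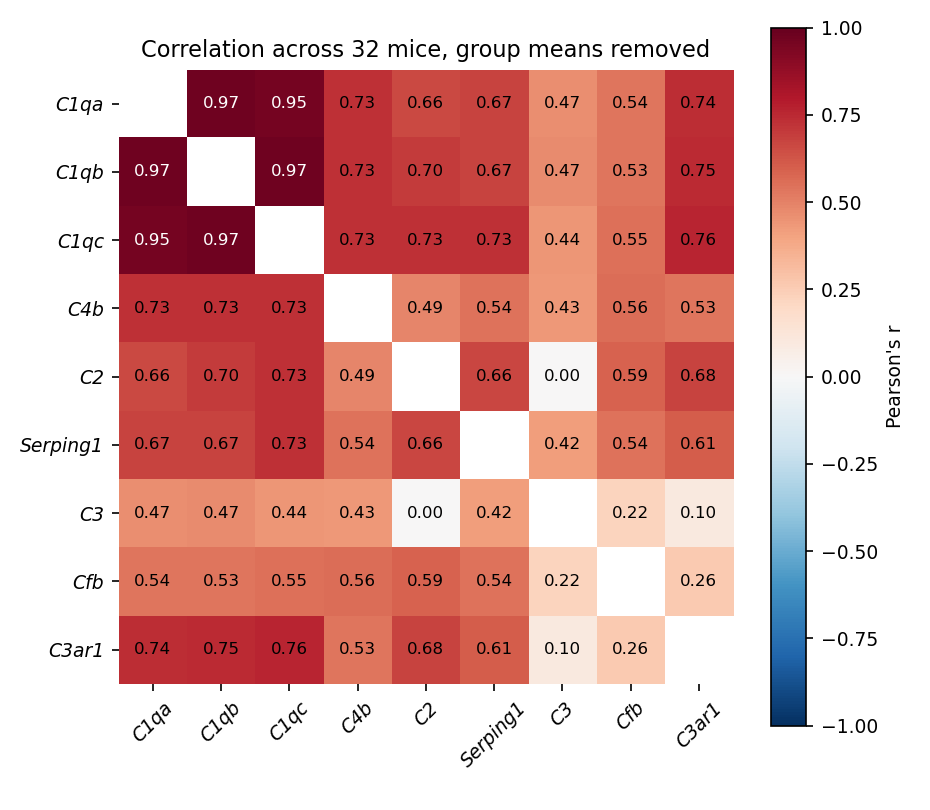
Pearson's r between each pair of the 9 complement genes across 32 mice, from log2 CPM with group means removed, colored from -1 (blue) to 1 (red). The C1q chains form a block at 0.95 to 0.97, and the row of C3 is the palest, from 0.003 to 0.47.

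Which other transcripts varied with each member was then described from 9 marker lists, in a measure added after the data were seen. Of the 81 pairs of a member and a list, 37 were correlated (adjusted permutation p below 0.05 over 81 pairs). Serping1 was closest to the fibroblast list (Dcn, Col1a1 and 8 other genes), with r = 0.79 (rho 0.75, adjusted permutation p = 0.000405, r = 0.75 without the 2 farthest mice). C3ar1 was closest to the microglia list (Cx3cr1, P2ry12 and 8 others), with r = 0.73 (rho 0.73, adjusted permutation p = 0.000405, r = 0.69 without the 2 farthest mice). Serping1 was also related to the endothelium (0.50) and border macrophage lists (0.48), and negatively to the astrocyte list (-0.46). Without the 2 farthest mice these Serping1 values were 0.37, 0.34 and -0.36. C3ar1 was also related to the border macrophage (0.59), endothelium (0.50) and smooth muscle lists (0.44), or 0.47, 0.40 and 0.30 without its 2 farthest mice. The C1q chains were related to border macrophage markers such as Mrc1 and Lyve1 (r = 0.50 to 0.60), to the microglia list (0.46 to 0.47) and to the fibroblast list (0.45 to 0.52). Without the 2 farthest mice these were 0.49 to 0.66, 0.36 to 0.46 and 0.35 to 0.39. C1qa and C1qc were also related to the endothelium list (0.48 and 0.47) and C1qc to the interferon list (0.48), while C1qb with the endothelium list had 0.38 and did not pass. C2 was related to the fibroblast (r = 0.64), microglia (0.55), interferon (0.48) and smooth muscle lists (0.45), and negatively to the astrocyte list (-0.40). Without the 2 farthest mice these C2 values were 0.48, 0.43, 0.43, 0.26 and -0.45. Cfb was related to the fibroblast (0.49), interferon (0.46) and endothelium lists (0.41). Without the 2 farthest mice these Cfb values were 0.48, 0.25 and 0.47. By rho, Cfb did not pass with the interferon or endothelium list (adjusted permutation p = 0.189 and 0.128). Nor did C2 with the interferon, smooth muscle or astrocyte list (0.0767 to 0.116), or C1qc with the endothelium list (0.0767). Serping1 with the endothelium, border macrophage and astrocyte lists (0.0767 to 0.139) and C3ar1 with the smooth muscle list (0.0742) also did not pass by rho. C4b was related to the border macrophage list (0.48), the endothelium list (0.47) and the interferon list (0.42).

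Within ages, r between C4b and the interferon list was 0.71 at 12 months and 0.08 at 3 months, and between C1qb and that list 0.80 and -0.01. No member was related to the choroid plexus list, and the neuron list was negatively related to 6 members, down to r = -0.63 for Serping1. By rho, C1qb and C1qc did not pass with the neuron list (adjusted permutation p = 0.0509 and 0.0573), while C3ar1 did (0.0405). C3 was related to none of the 9 lists (r from -0.23 to 0.16), the astrocyte list included (r = -0.13). The points share libraries and their scaling, and the lists are themselves mixtures of what each dissection held.

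**Figure D4:**
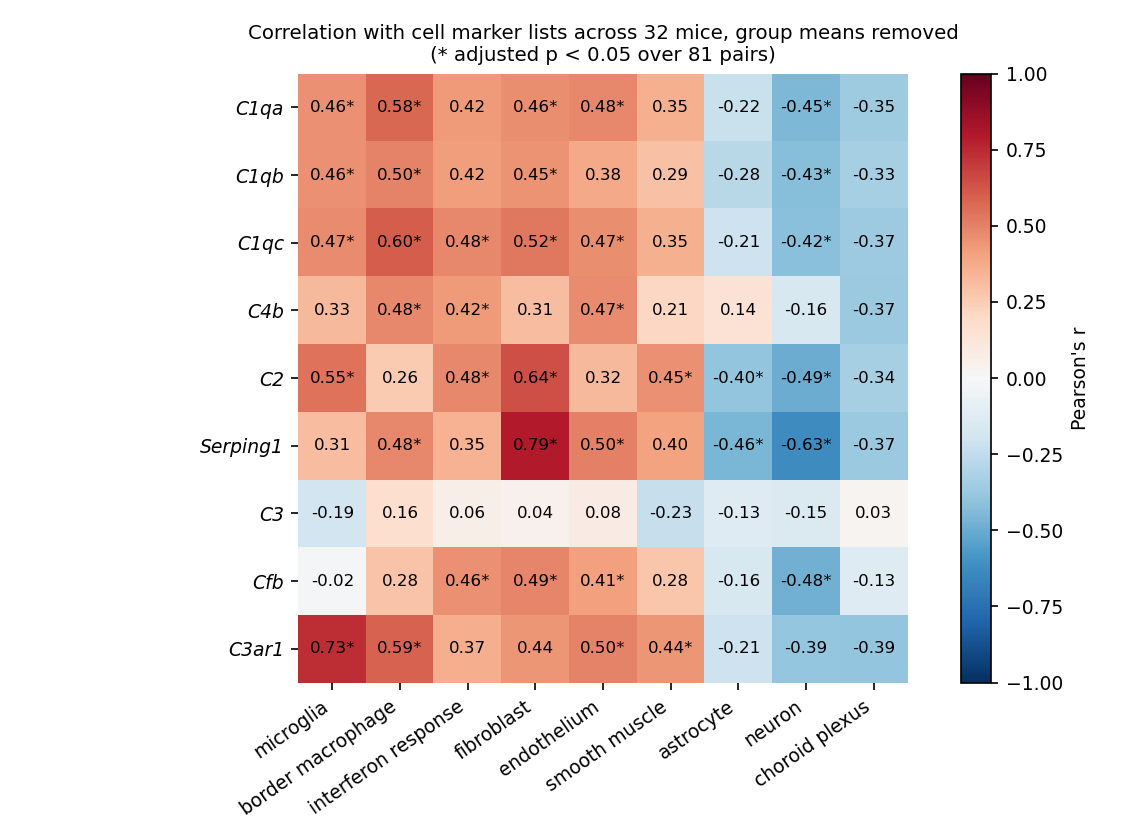
Pearson's r of each complement gene (rows) with the mean log2 CPM of 9 marker lists (columns) across 32 mice, group means removed; stars mark an adjusted p below 0.05 over 81 pairs. Serping1 with fibroblast markers (0.79) and C3ar1 with microglia markers (0.73) are highest, and the row of C3 holds no star.

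The 2 genes closest to each member among the genes tested in the fit of 4 groups were named by r over the 32 mice, with no test. For each C1q chain they were the other 2 chains. For C3 they were Cxcl13, encoding a chemokine of B cells, and Samsn1 (r = 0.76 and 0.73), and for C4b the kinase gene Fes and the macrophage scavenger receptor gene Msr1 (0.81 and 0.76). Those of C2 were Tapbp, encoding the peptide-loading protein tapasin, and the leukocyte gene Laptm5 (0.82 and 0.81), and those of Cfb were Nlrc5, an activator of MHC class I genes, and Ms4a6b (0.70 and 0.69). Serping1 was closest to Anxa4 and Rcn3 (0.90 and 0.89). C3ar1 was closest to Pik3cg, a leukocyte kinase gene, and the lectin receptor gene Clec4a2 (0.87 and 0.86).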

How the data were processed

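Brain arteries of 32 mice were sequenced as poly(A)-selected stranded libraries, 1 per mouse. The authors deposited whole-number read counts per Ensembl gene without normalization. The submitters' processing notes name bcl2fastq 2.20.0.422, cutadapt 1.10, Bowtie2 2.2.8, STAR 2.5.3a, HTSeq 0.6.1p1 and the build mm39, without their roles. Multimapped reads are a possible loss for C4b, since how they were handled is not given in the sources used here. All 32 columns were matched to labels. Chromosomes, exon lengths and transcripts came from GENCODE vM21, of another build, so no gene coordinates are given. The coordinates of the promoter windows are those of GRCm38.p6, not of the build named for the counts.

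Counts were filtered with filterByExpr, scaled by TMM and tested with edgeR 4.0.16 (R 4.3.3) by the two-sided quasi-likelihood test in a fit of the groups compared, with Benjamini-Hochberg adjustment over all genes tested and a threshold of 0.05. The study used DESeq2, here 1.42.0 and an alternative. CPM are counts scaled to the TMM-adjusted library size, and intervals hold counting error and the variation between mice. Correlations used log2(CPM + 0.5), group means removed, and 100000 permutations within groups.

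Alternatives were RLE scaling, tests without the filter or with every library required to hold at least 10 counts, DESeq2, limma 3.58.1 voom, all 4 groups in 1 fit, the replicate number as a block, covariates (myeloid, fibroblast, neuron and choroid plexus lists) and leaving out each mouse. No duplicate libraries were found.

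The 9 genes and the lists were chosen with earlier results of these data known. Named beside them were listed complement genes that passed (1 is not reported here), the most abundant of each list, C4a, and the 2 genes closest to each member.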

Additional observations from a re-analysis of the deposited data

Results flagged for a closer look

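In 3 of the 36 sets of 8 mice (9 genes in 4 groups) 1 mouse stood farther from the others than Dixon's limit for 8 samples allows, measured as the gap divided by the range, where chance alone gives about 1.8 such sets. For C3 it was Notch3+/+ replicate 8, at 28.9 CPM with the next mouse at 13.0 (0.635). For C2 it was TgNotch3R169C replicate 5, the lowest of its group at 32.3 CPM with the next at 39.3 (0.544). For Cfb it was WT replicate 2, at 1.11 CPM with the next at 0.66 (0.648).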

How the results depend on the processing

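Over the 1392 alternative values of single genes, 1276 kept their direction and their side of the threshold, 16 changed side, and 100 had the opposite sign, none of them called (lowest adjusted p 0.771). Among the 9 members, the count called was 1 in place of 0 in Notch3-/- mice with DESeq2 (C4b), and 0 to 1 over fits without 1 mouse. Between the control groups it was 1 in place of 2 with the fibroblast list as a covariate (C4b 0.65, adjusted p = 0.11) and without libraries rich in choroid plexus genes, and 1 to 3 without 1 mouse. The count of listed pathway genes, 4 between the control groups, was 7 with DESeq2, 1 with the replicate block, 0 with the fibroblast or choroid plexus covariate or without the choroid-rich libraries, and 1 to 5 without 1 mouse. Between the mutant groups this count, 3, was 1 with no filter, with the replicate block, with the choroid plexus covariate and without the choroid-rich libraries, and 0 to 3 without 1 mouse. The members called there were 1 in place of 2 with the neuron covariate. Correlated pairs were 9 in place of 32 in 3-month mice alone. The cause of these changes was not tested.

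What mice with the same replicate number share beyond that number is not given in the labels. Their deviations correlated above 0.1 in 4 of 8 numbers in both mutant comparisons and in 3 between the control groups. Between the mutant groups they did so in 6 (0.026 to 0.527). With the replicate block the members called were 0, 0, 2 and 2 in the 4 comparisons of 2 groups and 0 for the interaction, as without it. Counts over all genes moved by over 1.5 times in each comparison. In Notch3-/- mice (115) the count was 278 with DESeq2 and 174 in 1 fit of all groups. In TgNotch3R169C mice (20) it was 80 with DESeq2, 6 with the block, 34 with the fibroblast and 8 with the neuron covariate, and 2 without the choroid-rich libraries. Between the control groups (1398) it was 2262 with DESeq2, 715 with the block, 27 with the fibroblast and 320 with the choroid plexus covariate, and 402 without the choroid-rich libraries. Between the mutant groups (682) it was 1619 with DESeq2, 447 with the fibroblast and 173 with the neuron covariate, and for the interaction (65) it was 155 with DESeq2 and 39 without the choroid-rich libraries. At 9 to 50 counts per library, depth limits Cfb.

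The uncalled log2 fold changes that changed sign follow. In Notch3-/- mice C3 was at 0.16 with limma voom and 0.17 with the block, and at -0.15 to 0.41 without 1 mouse. In TgNotch3R169C mice Serping1 was at -0.0069 with limma voom, -0.0049 with the block, -0.051 with the fibroblast and -0.039 with the choroid plexus covariate. The fibroblast covariate also gave -0.036 for C3, and the myeloid covariate 0.015 for C1qb and 0.0073 for C3ar1. With the neuron covariate C1qa, C1qb, C1qc and C3ar1 were at 0.047, 0.074, 0.030 and 0.083, and without the choroid-rich libraries C1qa and C1qb were at 0.016 and 0.030. Without 1 mouse there, C1qa was at -0.077 to 0.022, C1qb at -0.048 to 0.055, C1qc at -0.075 to 0.0048, Serping1 at -0.030 to 0.053, C3 at -0.11 to 0.16 and C3ar1 at -0.089 to 0.041. Between the control groups the myeloid covariate gave -0.0042 for C1qb and -0.014 for C3ar1, and without 1 mouse C1qb was at -0.029 to 0.079, C3ar1 at -0.013 to 0.090 and Cfb at -0.016 to 0.28. Between the mutant groups Cfb was at -0.0014 with RLE scaling and -0.0075 with no filter, which put Serping1 at -0.0041. C1qa was there at 0.019 with the myeloid, 0.026 with the fibroblast, 0.084 with the neuron and 0.035 with the choroid plexus covariate, and C3ar1 at 0.012 with the fibroblast covariate. The neuron covariate put C1qb, C1qc and C3ar1 at 0.057, 0.060 and 0.18, and without 1 mouse C1qa was at -0.069 to 0.013, Cfb at -0.087 to 0.11 and Serping1 at -0.030 to 0.054. For the interaction C3 was at -0.16 with limma voom, -0.061 with the block and -0.0029 with the fibroblast covariate, C3ar1 was at 0.0051 with the myeloid covariate, and without 1 mouse C3 was at -0.39 to 0.18 and Cfb at -0.29 to 0.018.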

Other observations

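Cfi, encoding complement factor I, the protease that inactivates C3b and C4b, was named after its values were seen. It was at 0.78 CPM ± 0.62 in Notch3+/+ mice (0 to 1.84) and 1.28 ± 1.18 in Notch3-/- mice (0.14 to 3.71), and at 0.13 ± 0.057 in WT mice (0.038 to 0.24) and 0.16 ± 0.098 in TgNotch3R169C mice (0.028 to 0.34), with SD and n = 8 each. It was too low to be tested between the ages. Between Notch3-/- and Notch3+/+ mice its log2 fold change was 0.70 (SE 0.71, 95% CI -0.80 to 2.203, adjusted p = 0.921 with edgeR).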
